A study of Saccharomyces cerevisiae with 24 samples.

Results

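The mitochondrial chromosome of budding yeast (chrM) carried 664 of the 63873 peaks that were called in 12 FAIRE libraries of colony cells, 1.04% of all peaks on 0.706% of the sequence. Its members were taken by position alone, as every peak placed on chrM in any of the 12 deposited peak lists. In FAIRE, cells are fixed with formaldehyde and their DNA is sheared and extracted with phenol and chloroform, so that fragments with little crosslinked protein pass into the water phase and are sequenced. The libraries came from 4 amounts of colony cells (4, 20, 100 or 500 mg) with 3 biological replicates each, and the series asks how FAIRE can be run on few cells. Each of the 12 FAIRE libraries had an unfixed input library of its own amount and replicate number. All samples were strain BY4742, a haploid laboratory strain with auxotrophic marker deletions, grown as giant colonies at 28 °C on a glycerol and ethanol agar with a pH dye, and part of the cells was lifted with a spatula on day 3. The sources used here do not say from how many colonies a sample came. Coordinates are 1-based on build R64 (sacCer3).

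Mitochondrial DNA is held in nucleoids, where it is packed by the HMG-box protein Abf2 and not by histones. The chromosome encodes a few hydrophobic subunits of the respiratory chain and of ATP synthase, 1 ribosomal protein, both mitochondrial ribosomal RNAs, a set of tRNAs and the RNA subunit of mitochondrial RNase P. Several of these genes hold introns, some with reading frames of their own, and the genes are parted by long A+T-rich spacers. Growth on glycerol and ethanol depends on respiration and so on an intact mitochondrial genome. The RefSeq table of R64 gives 46 genes here, 19 of them protein-coding and 24 tRNA genes, as spans with no exons. These spans filled 33794 bp, 39.4% of the 85777 bp up to the last annotated base, and 51983 bp lay outside them. On the nuclear chromosomes annotated genes filled 73.5%. Base composition was not analysed here, and no genome sequence was at hand.

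The lists fell unevenly on this chromosome. In order of replicate, there were 46, 78 and 68 chrM peaks in the 4 mg libraries, 31, 3 and 69 for 20 mg, 23, 78 and 67 for 100 mg, and 67, 61 and 73 for 500 mg. Of the 85777 bp, peaks covered 30.8%, 52.7% and 59.3% at 4 mg, 9.85%, 0.914% and 43.7% at 20 mg, 8.84%, 53.0% and 33.2% at 100 mg, and 50.4%, 53.0% and 53.3% at 500 mg. In 3 lists, those of 20 mg replicates 1 and 2 and of 100 mg replicate 1, less than 10% of chrM was covered, and they stand apart from the other 9. The 500 mg libraries lay close together, whereas the other biomasses each held libraries far apart. In the same 3 lists 21.5%, 20.8% and 14.4% of the nuclear sequence was covered, against 15.9% to 24.3% in the other 9, so that the nuclear coverage of both 20 mg lists lay inside that range and that of 100 mg replicate 1 below it. Results are given with and without these 3 lists, which were singled out after their values were seen.

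**Figure D1:**
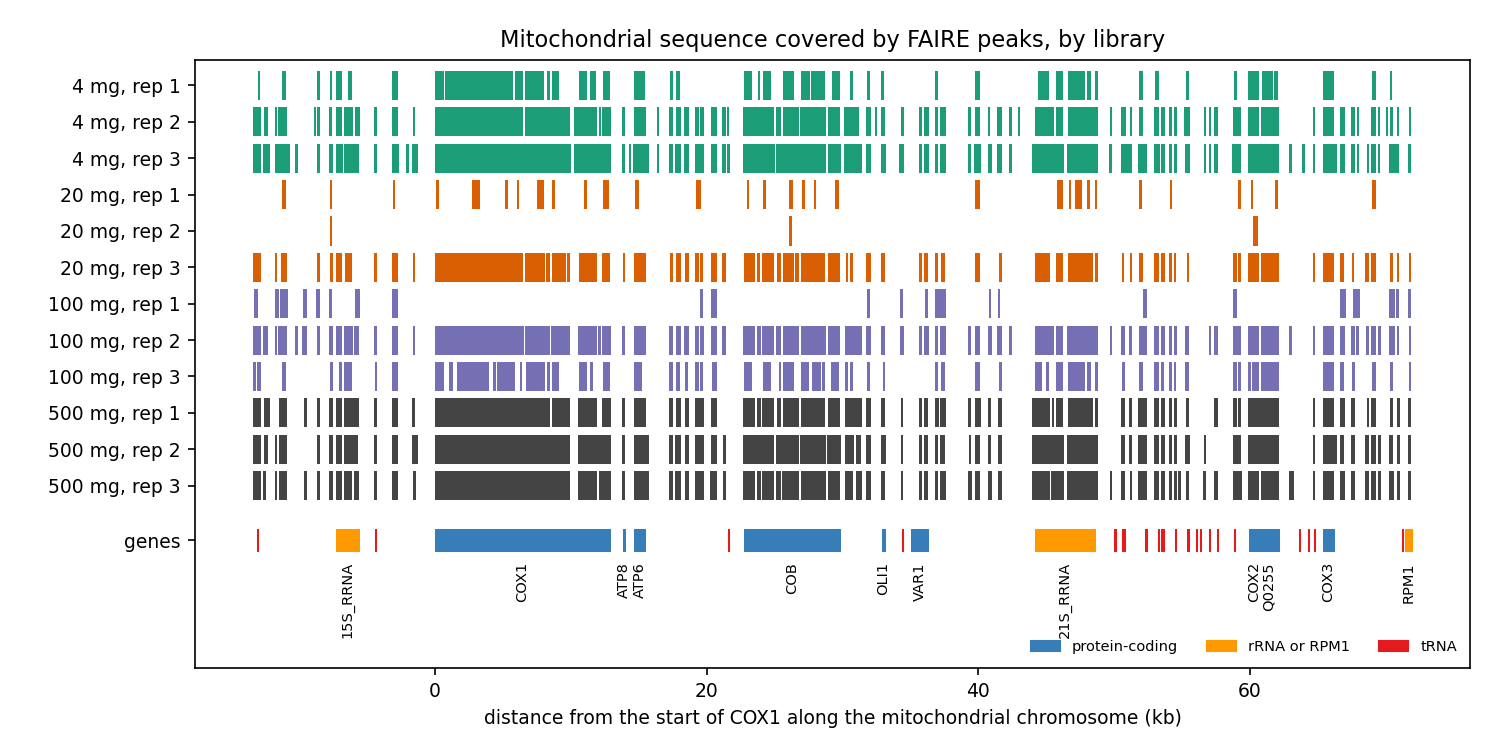
Each row is 1 library, low biomass above high, and coloured blocks are sequence covered by its chrM peaks, plotted as distance in kb from the start of COX1. Genes are drawn below as spans. In 9 rows the blocks cover 67.1% or more of COX1, while 20 mg replicates 1 and 2 and 100 mg replicate 1 have few blocks.

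Whether the mitochondrial peaks changed with biomass was asked of 7 measures per list, and none passed after adjustment. From the lowest to the highest biomass, peaks numbered 64 ± 16.4, 34.3 ± 33.1, 56 ± 29.1 and 67 ± 6 (SD, n = 3 each). Biomass took 30.3% of the variance between lists (exact permutation test over 369600 assignments, p = 0.380, adjusted p = 0.444 over 7 tests). The covered share was 47.6% ± 14.9, 18.1% ± 22.6, 31.7% ± 22.1 and 52.3% ± 1.60 in the same order, with 47.2% of the variance between biomasses (exact permutation test, p = 0.143, adjusted p = 0.265). Against 500 mg the covered share differed by -4.65 percentage points at 4 mg (two-sided exact permutation test, p = 0.8), -34.1 at 20 mg (p = 0.1) and -20.6 at 100 mg (p = 0.2), where 0.1 is the smallest p that 3 lists against 3 can give. The highest 20 mg list, with 43.7%, lay below the lowest 500 mg list, with 50.4%, and at 4 mg and 100 mg the lists overlapped those of 500 mg. Without the 3 lists that stand apart, 1 list was left at 20 mg, and the number at 20 mg and at 100 mg then exceeded that at 500 mg by 2.00 and 5.50 peaks. The gaps in covered share were then -8.60 points at 20 mg, where 1 list against 3 allows no p below 0.25 (exact permutation p = 0.25), and -9.20 points at 100 mg (exact permutation p = 0.2); leaving out 100 mg replicate 1 alone also gave -9.20. The differences in number over all lists were -3 at 4 mg, -32.7 for 20 mg and -11 for 100 mg (exact permutation p = 0.9, 0.3 and 0.9).

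**Figure D2:**
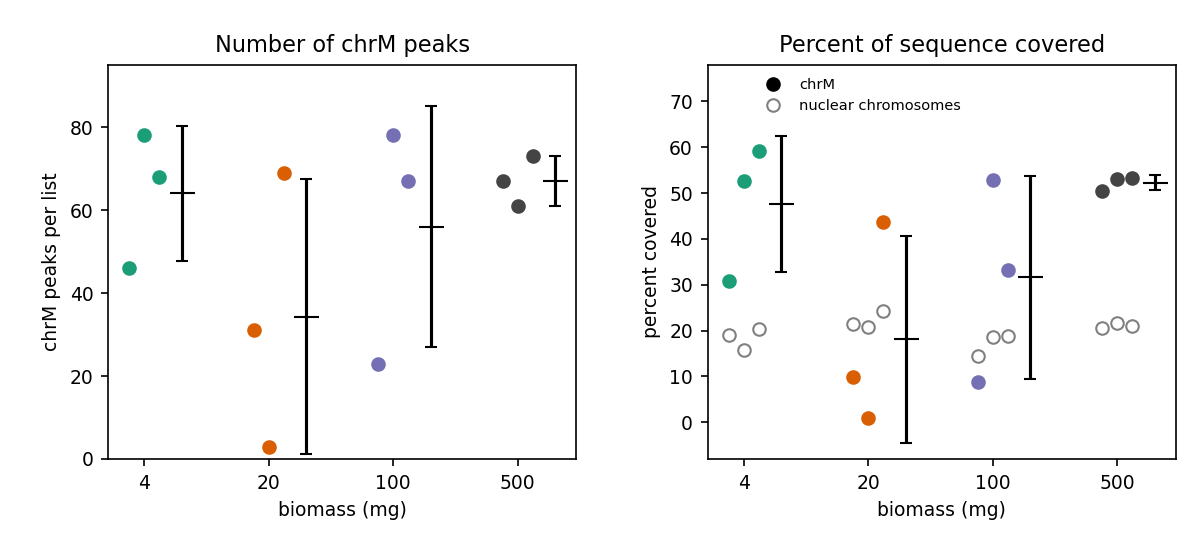
Points are single libraries by biomass (mg); black bars are mean and SD of 3 chrM values. Left, chrM peaks per list; right, percent of sequence covered on chrM (filled) and on the nuclear chromosomes of the same list (open). The chrM coverage runs from 0.914% to 43.7% at 20 mg and from 8.84% to 53.0% at 100 mg, while the nuclear values stay between 14.4% and 24.3%.

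Of the other measures, the median width of chrM peaks came nearest to a difference. In rising order of biomass it was 346.5 ± 28.2, 240.0 ± 54.6, 301.7 ± 37.6 and 331.7 ± 4.51 bp (SD, n = 3 each), with an unadjusted p of 0.0364 and an adjusted p of 0.175 in the exact permutation test. Without 20 mg replicate 3 the adjusted p was 0.0414. The chrM share of a list's peaks was 1.32% ± 0.404, 0.551% ± 0.532, 1.08% ± 0.503 and 1.31% ± 0.0970 in order of rising biomass (exact permutation p = 0.152, adjusted p = 0.265). The share of chrM peak length that lay in genes was 71.1% ± 11.4, 72.4% ± 1.22, 50.8% ± 32.2 and 67.1% ± 1.43 (exact permutation p = 0.511, adjusted p = 0.511). With summits in place of length, biomass took 38.5% of the variance (exact permutation p = 0.259, adjusted p = 0.303).

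By length, peaks covered a larger share of the mitochondrial genes than of the spacers, while by number more summits lay in the spacers. Of 664 summits, 304 (45.8%) lay in genes and 360 outside, and more lay outside in 8 of 12 lists. In the 4 mg lists 65.7%, 90.1% and 93.4% of the gene length was covered, and 8.20%, 28.4% and 37.1% of the sequence outside genes. At 20 mg the gene length was covered for 17.8%, 1.70% and 80.8%, and the outside sequence for 4.71%, 0.402% and 19.5%. At 100 mg the values were 3.11%, 88.05% and 61.4% in genes and 12.6%, 30.1% and 14.8% outside, and at 500 mg 87.2%, 91.1% and 88.6% in genes and 26.5%, 28.3% and 30.4% outside. Genes were thus covered more than the outside sequence in 11 of 12 lists, and 100 mg replicate 1 was the exception. On the nuclear chromosomes of the same lists genes were covered for 14.6% to 26.0% and the outside sequence for 13.8% to 19.7%. The nuclear share was also higher in genes, in 12 of 12 lists.

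**Figure D3:**
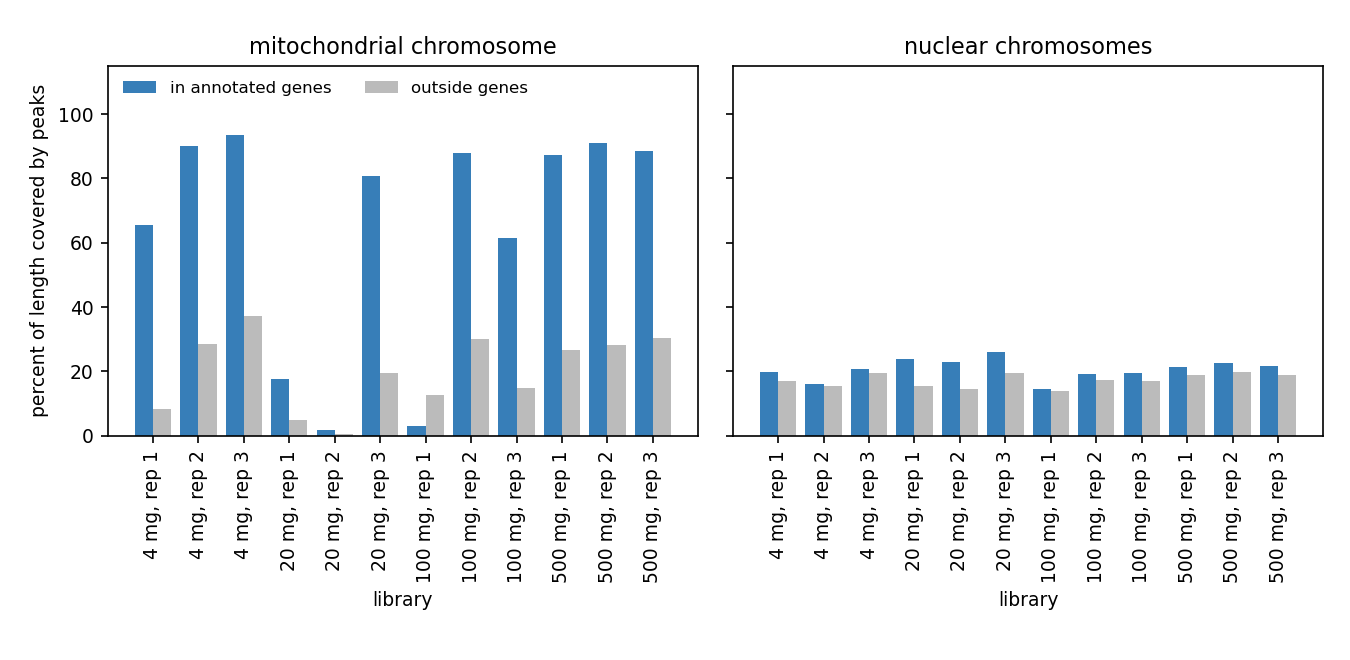
Bars give the percent of length covered by peaks in annotated genes (blue) and outside them (grey) for each library. On the mitochondrial chromosome genes reach 61.4% to 93.4% in 9 libraries; on the nuclear chromosomes both bars stay under 27%.

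The same contrast held base by base. Peaks of at least 9 of the 12 lists covered 57.8% of the gene length and 11.9% of the sequence outside genes. No list covered 6.49% of the gene length, against 58.0% of the outside sequence. A single stretch of 151 bp, chrM 6080 to 6230, was covered in all 12 lists. It lies outside the annotated genes, 316 bp before the start of 15S_RRNA, the gene of the small mitochondrial ribosomal RNA. The peak over it had fold enrichments of 1.72, 3.02 and 3.58 at 4 mg, 1.501, 1.63 and 2.84 at 20 mg, 1.23, 2.53 and 1.87 at 100 mg, and 3.22, 3.33 and 2.45 at 500 mg. Within its list it stood above 2.88% and 7.75% of nuclear peaks in 20 mg replicates 1 and 2 and 0.577% in 100 mg replicate 1. In the other 9 lists, from which these 3 were set apart for low chrM coverage, it stood above 14.2% to 90.8%. The longest stretch in no list, of 1582 bp, ran from 51464 to 53045 in the spacer between VAR1 and 21S_RRNA. It was followed by 12568 to 13779 (1212 bp, ending 39 bp before COX1), 48340 to 49455 (1116 bp, reaching into VAR1), 8270 to 9350 (1081 bp, between 15S_RRNA and tW(UCA)Q) and 9572 to 10614 (1043 bp, beyond tW(UCA)Q).

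The 3 genes of cytochrome c oxidase, the terminal enzyme of the respiratory chain, were covered over most of their length outside the 3 lists that stand apart. COX1 (chrM 13818 to 26701, 12884 bp with its introns) was covered for 78.2%, 95.9% and 98.2% at 4 mg, 20.7%, 0% and 87.9% at 20 mg, 0%, 92.9% and 67.1% at 100 mg, and 91.4%, 95.9% and 94.6% at 500 mg. The longest chrM peak of each of the other 9 lists lay over this gene and was between 2374 and 10017 bp long. COX3 (79213 to 80022, 810 bp) was covered for 99.1% or more in 9 lists and not at all in the other 3. There was a single peak over COX3 in each of the 9 lists, which began between 30 bp before and 3 bp after the annotated start, with a median of 17 bp before it. Its end lay between 4 bp before and 264 bp after that of the gene, with a median of 26 bp after. COX2 (73758 to 74513, 756 bp) was covered for 83.6% to 100% in those 9 lists, for 22.8% and 50.7% in 20 mg replicates 1 and 2 and for 0% in 100 mg replicate 1. The COX2 peak ran on over Q0255, the reading frame that overlaps its end, in 4 mg replicate 3 and 500 mg replicates 1 and 2. In these 3 lists it ended 1466 to 1475 bp beyond COX2. It just reached Q0255 in 4 mg replicate 2, 100 mg replicate 2 and 500 mg replicate 3. There it ended 6 bp after, 6 bp before and 15 bp after the end of COX2. Q0255 itself (74495 to 75984) was covered for 72.3% to 100% in the 9 lists and for 13.4% in 20 mg replicate 1, and had no peak in the other 2.

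COB, the gene of cytochrome b (36540 to 43647, 7108 bp with introns), was overlapped by a peak in 11 lists and covered for 59.6% to 96.8% in the 9 lists, with 18.5% and 2.70% in 20 mg replicates 1 and 2. In these 9 lists the first peak over COB began between 30 bp before and 23 bp after the annotated start and the last one ended between 58 bp before and 44 bp after its end. These distances are shorter than the shortest peak of any list, which was 144 bp. For COX1, in the same 9 lists, the first start lay between 38 bp before and 7 bp after the annotated start and the last end 9 to 69 bp after the annotated end. In 20 mg replicate 1 the peaks stayed inside both genes, starting 236 bp after the start of COB and 94 bp after that of COX1. All 10 reading frames that the table places in introns or joins to the first exons of COX1 and COB (AI1 to AI5_BETA, BI2 to BI4 and SCEI) were overlapped in 10 or 11 lists. The AI and BI frames other than AI5_BETA share their start with COX1 or COB, so they are not separate evidence. SCEI, the frame of the homing endonuclease I-SceI inside 21S_RRNA (61022 to 61729), was covered for 93.6% to 100% in the 9 lists and for 60.5% in 20 mg replicate 1.

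Of the ATP synthase genes, ATP8 was overlapped in fewer lists than ATP6 and OLI1. ATP6 (28487 to 29266, 780 bp) was covered for 72.4% to 100% in the 9 lists and OLI1, encoding subunit 9 of the membrane ring (46723 to 46953, 231 bp), for 70.1% to 100%. ATP8, the shortest protein-coding gene on the chromosome (27666 to 27812, 147 bp), had a peak in 7 lists, with 93.9% to 100% covered, and none in 4 mg replicate 1, 100 mg replicate 3 or the 3 lists that stand apart. In 20 mg replicate 1 ATP6 was covered for 40.6% and OLI1 for 0%.

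VAR1 was covered in part at most. It encodes a protein of the small mitochondrial ribosomal subunit (48901 to 50097, 1197 bp), and its coverage was 39.4% to 42.9% in 7 lists, 15.7% in 100 mg replicate 1 and 0% in 4 mg replicate 1, 20 mg replicates 1 and 2 and 100 mg replicate 3. Its first 555 bp in map order, 48901 to 49455, were covered in no list, and 43.6% of the gene was covered in any. The ribosomal RNA genes were covered for 42.9% to 93.6% (15S_RRNA, 6546 to 8194) and 61.3% to 94.3% (21S_RRNA, 58009 to 62447) in the 9 lists. RPM1, the RNase P RNA gene at the end of the map (85295 to 85777), had 37.5% to 48.2% covered in 9 lists, 100 mg replicate 1 with 44.3% among them, and 0% in 4 mg replicate 1 and 20 mg replicates 1 and 2.

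**Figure D4:**
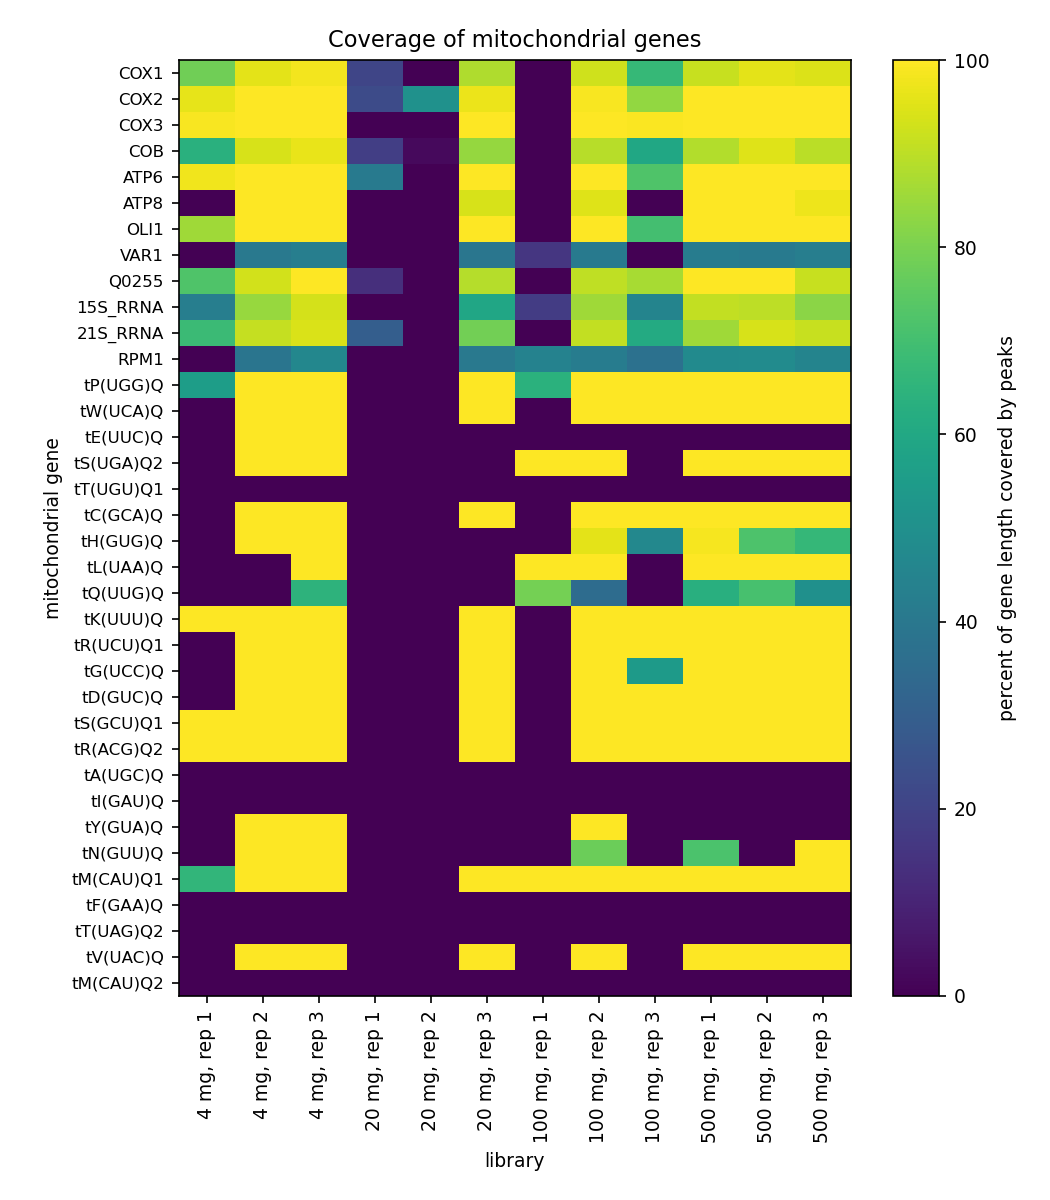
Rows are mitochondrial genes, protein-coding and ribosomal genes and RPM1 first and tRNA genes in map order below, without the frames nested in introns; columns are libraries; colour is the percent of gene length covered by peaks. COX3, ATP6 and OLI1 are near 100 in most columns, VAR1 and RPM1 stay under 49, and 6 tRNA genes are at 0 in every column.

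The tRNA genes, all shorter than a peak, differed from one another in whether they were overlapped at all. Those overlapped were covered in full for 16 of 16 genes in 4 mg replicate 2 and 13 of 16 in 500 mg replicate 1, against 3 of 5 in 4 mg replicate 1. The number of the 24 genes overlapped was 5, 16 and 18 at 4 mg, 0, 0 and 11 at 20 mg, 5, 17 and 11 at 100 mg, and 16, 15 and 16 at 500 mg. Nuclear tRNA genes were not counted list by list, so these numbers have no nuclear background beside them. The tRNA genes tP(UGG)Q (731 to 802) and tM(CAU)Q1 (72630 to 72705) were overlapped in 10 lists, and tK(UUU)Q, tS(GCU)Q1 and tR(ACG)Q2 in 9. The last 2 are adjacent, and 1 peak covered both. No list had a peak over tT(UGU)Q1, tA(UGC)Q, tI(GAU)Q, tF(GAA)Q, tT(UAG)Q2 or tM(CAU)Q2. In the tRNA-rich stretch between 21S_RRNA and COX2, such genes lie close together: tR(ACG)Q2 ends at 69362, and tA(UGC)Q, which starts at 69846, was never overlapped.

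Counted in at least 9 lists, a larger share of protein-coding genes and a smaller share of tRNA genes was overlapped on chrM than on the nuclear chromosomes. Peaks of at least 9 lists overlapped 25 of 46 mitochondrial genes (54.3%), near the nuclear background of 49.8%. With a summit in the gene the count was 17, or 37% (nuclear background 42.4%). With −log10 q of at least 5 it was 14, or 30.4% (nuclear background 46.3%). Under both of these rules the mitochondrial share was thus below the nuclear one, and gene classes are not given apart for them. By any overlap, the count for protein-coding genes was 17 of 19 (89.5%), against 50% of nuclear ones. The 17 include the reading frames nested in COX1 and COB, whereas of the 8 genes for respiratory chain, ATP synthase and Var1 proteins it was 6. The mitochondrial protein-coding spans are also longer, with a median of 2040 bp against 1200 bp. For tRNA genes, of 75.5 bp against 73.0 bp in the median, it was 5 of 24 (20.8%), against 52.7% of 275 nuclear tRNA genes. A further 10 mitochondrial tRNA genes were overlapped in 6 to 8 lists, a range for which nuclear genes were not counted. No mitochondrial gene was overlapped in all 12 lists, against 33.9% of nuclear genes, 34.7% of nuclear protein-coding genes and 26.9% of nuclear tRNA genes. Since 3 of the 12 lists hold few chrM peaks, a count of 9 lists asks for nearly all of the rest. No mitochondrial protein-coding gene was without a peak in every list, against 27.8% of the nuclear ones, and 6 of 24 tRNA genes (25%) were, against 16.7%.

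The chromosome as a whole was set against the nuclear chromosomes of the same list in 5 paired comparisons, and none passed after adjustment. Peaks covered 37.4% ± 20.5 of chrM and 19.8% ± 2.66 of the nuclear sequence (SD, n = 12), higher on chrM in 9 of 12 lists (two-sided exact permutation test with 4096 sign patterns, p = 0.0166, adjusted p = 0.0549 over 5 tests). There were 0.645 ± 0.282 peaks per kb on chrM and 0.436 ± 0.0585 on the nuclear chromosomes, again higher on chrM in 9 of 12 lists (exact permutation p = 0.0420, adjusted p = 0.0700). The 3 lists with lower values were those that stand apart. Without them, and so with the choice of lists in favour of the difference, chrM exceeded the nuclear chromosomes by 27.7 percentage points and 0.359 peaks per kb, in 9 of 9 lists. These are peak lists, and the read depth behind them is unknown.

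Median widths on chrM lay on both sides of the nuclear ones, while peaks over 1000 bp were a larger share of chrM peaks in 9 lists. The median width was 305.0 ± 52.6 bp on chrM and 304.5 ± 21.6 bp on the nuclear chromosomes (SD, n = 12; two-sided exact permutation p = 0.976, adjusted p = 0.976), and chrM peaks were wider in 7 of 12 lists. Without the 3 lists that stand apart the medians averaged 328.2 bp on chrM and 303.4 bp on the nuclear chromosomes, a gap of 24.8 bp in place of 0.417 bp (exact permutation p = 0.0430, adjusted p = 0.0716). On chrM, peaks with the summit in a gene had median widths of 457 to 968 bp in the 9 lists and those outside genes 221.5 to 298 bp. Peaks over 1000 bp made up 7.46% to 18.0% of chrM peaks in the 9 lists, against 4.04% to 8.93% of nuclear peaks in the same lists, and none was found in the other 3. The share was higher on chrM in all of the 9.

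The fold enrichment of a peak, which is the authors' own ratio of FAIRE to input at its summit, was read only within a list. Its median was 2.15 ± 0.643 on chrM and 2.43 ± 0.465 on the nuclear chromosomes (SD, n = 12), higher on chrM in 3 of 12 lists (two-sided exact permutation p = 0.0640, adjusted p = 0.07996). The 3 lists were 4 mg replicates 2 and 3 and 100 mg replicate 2. Without the lists that stand apart the difference was -0.15 (exact permutation, adjusted p = 0.348). The median chrM peak stood above 11.6%, 90.4% and 64.3% of the nuclear peaks of its list at 4 mg, 0.956%, 1.57% and 28.3% at 20 mg, 11.1%, 51.9% and 15.7% at 100 mg, and 24.0%, 32.4% and 27.4% at 500 mg. The 4 mg lists were furthest apart and the 500 mg lists closest together. Biomass took 39.9% of the variance (exact permutation p = 0.218, adjusted p = 0.305). The strongest peak of the whole list of 4 mg replicate 2 was mitochondrial, with a fold enrichment of 4.76 (408 to 981). It spans tP(UGG)Q, but its summit at 534 lies outside that gene (731 to 802). In 100 mg replicate 2 a chrM peak spanning tR(UCU)Q1 and tG(UCC)Q, with its summit between them at 67427, ranked 2 of 5039, with a fold enrichment of 4.28 (67286 to 67585).

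The strongest chrM peak of a list was not the same in all lists. It spanned tP(UGG)Q in 500 mg replicate 3 (fold enrichment 4.36, 418 to 1036), with the summit at 879 beyond the gene, and lay over COB in 4 mg replicate 3 (4.77) and 500 mg replicate 2 (3.74), with summits at 39643 and 39612. In the spacer after VAR1, 4 mg replicate 1 (2.29, 50674 to 50858), 100 mg replicate 1 (1.87, 50645 to 51463) and 500 mg replicate 1 (3.38, 51027 to 51442) had theirs. It lay over VAR1 in 20 mg replicate 3 (3.12, summit 49573), and in 100 mg replicate 3 the peak overlapped tW(UCA)Q (2.33), with the summit at 9468 beyond the gene's end at 9447. In 20 mg replicate 1 it lay outside genes between tM(CAU)Q1 and COX2 (2.44, 72968 to 73171). In 20 mg replicate 2, with its 3 peaks, it was the peak before 15S_RRNA (1.63, 6054 to 6262).

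Peaks of the 9 lists had 51 stretches in common, 22842 bp in all, of which 39 touched a gene and 12, with 3069 bp, lay outside. The longest of them lay in COX1 (15401 to 17774, 2374 bp), COX1 again (20484 to 21852, 1369 bp) and 21S_RRNA with SCEI (60464 to 61684, 1221 bp), which were named after their values were seen. Of the 12 outside genes the longest were 10684 to 11076 (393 bp, 2742 bp before COX1) and 53592 to 53939 (348 bp, in the spacer after VAR1), named in the same way. The Jaccard index, the shared over the joint peak length of 2 lists, was 0.520 to 0.914 for 7 pairs of these lists within a biomass and 0.559 to 0.904 for 29 pairs between biomasses, with medians of 0.864 and 0.814. For the nuclear chromosomes of the same pairs the medians were 0.719 and 0.707. Over all 12 lists the order was the reverse: the chrM medians were 0.552 within and 0.580 between biomasses, against 0.700 and 0.616 on the nuclear chromosomes. The index also depends on the share covered, which differs between chrM and the nuclear chromosomes, so their medians are not like for like. Pairs share lists, and no test was run.

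The 3 lists that stand apart did so in different ways. All of the 784 bp and of the 8448 bp covered in 20 mg replicates 2 and 1 were also covered in at least 1 of the 9 other lists, and 96.7% and 86.5% of them in all 9. The 3 peaks of 20 mg replicate 2 lay before 15S_RRNA, in COB (39898 to 40089) and in COX2 (74047 to 74429). In 100 mg replicate 1, 94.1% of 7586 bp was covered in at least 1 of the 9 other lists, but only 21.1% in all 9. Of the 23 summits of this list, 18 lay outside genes. COX1, COX2, COX3, COB, ATP6, ATP8, OLI1, Q0255 and 21S_RRNA had no peak there. In part, 15S_RRNA (17.8%), VAR1 (15.7%) and RPM1 (44.3%) were covered. Of the 24 tRNA genes only 5 were overlapped: tP(UGG)Q, tS(UGA)Q2, tL(UAA)Q, tQ(UUG)Q and tM(CAU)Q1. The Jaccard index of 100 mg replicate 1 with the other 11 lists had a median of 0.121 on chrM and of 0.553 on the nuclear chromosomes. An index cannot exceed the smaller over the larger covered length, so 7586 bp keep it low against the 9 lists wherever they lie.

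The level behind the peaks was recovered by solving the deposited fold enrichment and −log10 p of each peak for the FAIRE pileup, the number of fragments over the summit, and for the input level that the caller expected there. At chrM summits in genes the median pileup was 191.5, 183.9 and 177.2 at 4 mg, 146.0, 151.0 and 192.5 at 20 mg, 110.4, 191.0 and 159.0 at 100 mg, and 202.0, 233.0 and 245.0 at 500 mg. At chrM summits outside genes it ran from 98.8 to 144.0, and it was lower than in genes in 12 of 12 lists. The input level was 117.4, 42.2 and 47.5 in genes at 4 mg, 110.1, 114.5 and 93.5 at 20 mg, 70.7, 81.5 and 109.3 at 100 mg, and 103.0, 75.0 and 85.5 at 500 mg. Outside genes it ran from 35.3 to 75.0 and was lower than in genes in 11 of 12 lists, with 100 mg replicate 1 the exception. Both levels were thus higher in genes, and the fold enrichment was higher in genes in 3 of 12 lists. The pileup is not a separate result here, since a summit over a higher input level needs a higher pileup to be called. In several lists the outside input level lay close to that of the lowest 1% of all peaks in the list. It was 45.5 against 45.5 in 500 mg replicate 2 and 44.5 against 44.0 in 500 mg replicate 3. In 4 mg replicates 2 and 3 it was 35.3 against 34.4 and 41.2 against 39.9, but the recovered pileups of these libraries are not whole numbers. Elsewhere it lay further above, up to 75.0 against 39.3 in 20 mg replicate 2. Whether a lower bound of the input level shapes the contrast with genes was not tested.

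**Figure D5:**
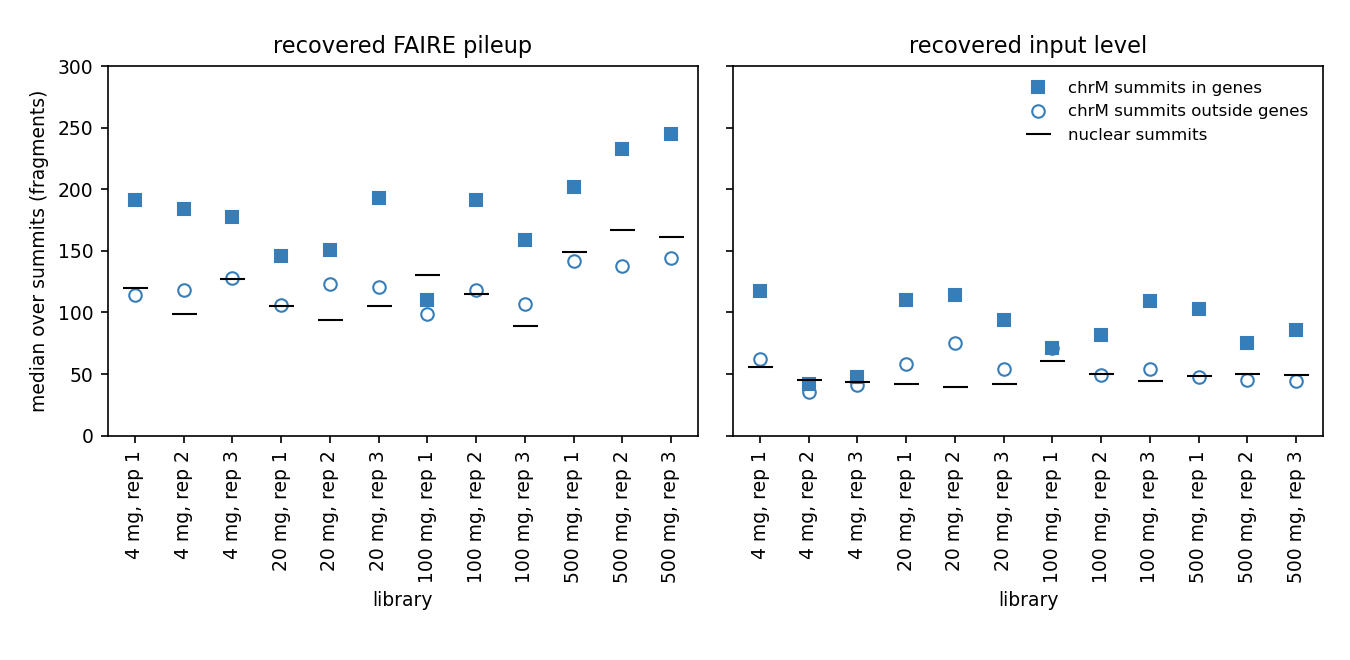
Points are medians per library of the recovered FAIRE pileup (left) and input level (right), in fragments, at chrM summits in genes (squares), outside genes (circles) and at nuclear summits (bars). Squares stand above circles in every library for the pileup and in 11 of 12 for the input. Gene input levels are over 100 in 20 mg replicates 1 and 2, 4 mg replicate 1, 100 mg replicate 3 and 500 mg replicate 1. Gene pileups are near 150 in these 20 mg libraries, and 191.5, 159.0 and 202.0 in the others, in that order.

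Over all chrM summits the input level was 67.6 ± 26.5, against 47.5 ± 6.07 at nuclear summits (SD, n = 12; two-sided exact permutation p = 0.0220, adjusted p = 0.0549). The difference of 20.1 was 10.3 without the 3 lists that stand apart (exact permutation, adjusted p = 0.181). Its ratio of chrM to nuclear was 1.82, 0.790 and 0.945 at 4 mg, 2.53, 2.87 and 1.45 at 20 mg, 1.17, 1.12 and 1.69 at 100 mg, and 1.16, 0.906 and 1.00 at 500 mg. The 2 lists of 20 mg with few chrM peaks had the highest ratios of the 12, and 4 mg replicate 2, which shares the highest number of chrM peaks, the lowest. The other lists did not all follow this order. The ratio was 1.17 in 100 mg replicate 1, with 23 chrM peaks, and 1.69 in 100 mg replicate 3, with 67. In 100 mg replicate 2, with 78, it was 1.12. The part of the input level in the number of peaks was not tested. Biomass took 59.8% of the variance in this ratio (exact permutation test, p = 0.05, adjusted p = 0.175). In 100 mg replicate 1 the chrM pileup was 101.1 against 130.1 at nuclear summits, the lowest ratio of the 12 libraries, 0.777. The recovered levels are known at called summits and not elsewhere, so a list with few peaks gives few points. Within 0.02, the recovered pileup was a whole number for 100% of peaks in 9 libraries. The exceptions were 4 mg replicates 2 (4.00%) and 3 (3.73%) and 100 mg replicate 1 (3.73%), so levels of these libraries are not whole fragments.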

How the data were processed

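FAIRE and input DNA of 24 yeast samples were sequenced with 75 bp single-end reads, per the labels. Per the submitters' processing notes, tools included MACS2 2.1.1.20160309, Bowtie2 2.2.8 and SAMtools 1.4, on R64 (sacCer3). How duplicate or multiply mapping reads were treated, and with which settings, the sources used here do not give. Per the labels, 1 list was made per FAIRE and input pair. Deposited were positions (from 0, turned to 1-based), a fold enrichment ratio, −log10 p-value and −log10 q-value; the deposited score, 10 times −log10 q rounded down in all but 4 peaks, was not used. Read totals were not analysed here.

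Lists were the unit (4 biomasses of 3), tested by exact permutation in Python 3.11.15 with numpy 2.4.6, two-sided, with Benjamini-Hochberg adjustment over 7 and 5 tests. Replicates are biological per the labels. Sequence length was taken up to the last annotated base or peak. FAIRE pileup and input level were solved under a Poisson model with a pseudocount of 1, checked on simulated peaks. For pileups that are not whole the check allowed a larger error in the input level. Genes came from a RefSeq table of R64. The rule named every protein-coding and rRNA gene, RPM1, tRNA genes overlapped in all or no lists, up to 10 stretches in all lists, the 5 longest in none and the strongest peak per list; other tRNA genes and intron frames were named after their values were seen. Alternatives were stricter peaks, merged intervals, a replicate block, summits and each list left out. Members and gene lists were chosen with earlier results of these data known. Replicate numbers were not used to pair the lists in the main tests, and whether same-numbered libraries were handled together was not established here.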

Additional observations from a re-analysis of the deposited data

Results flagged for a closer look

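The median chrM peak was wider than the median nuclear peak in all 3 lists at 4 mg and narrower in all 3 at 20 mg. At 20 mg chrM minus nuclear was -91, -77 and only -5 bp in order of replicate. Replicates 1 and 2 there are lists that stand apart. The mean of chrM minus nuclear was 104 bp higher at 4 mg than at 20 mg. All 3 lists at 500 mg were wider too, and 20 mg minus 500 mg was -81 bp in the same measure. The difference between biomasses was not tested. In 20 mg replicates 1 and 2, with 31 and 3 chrM peaks, the median rests on few peaks.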

How the results depend on the processing

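The 7 comparisons of biomasses missed the adjusted threshold under all alternatives except 1: without 20 mg replicate 3, biomass took 85.3% of the variance in chrM peak width (exact permutation, adjusted p = 0.0414), with a range of 56.0% to 85.3% over the 12 lists left out in turn. The covered share on chrM minus nuclear was 15.7 to 21.1 points with each list left out, and the adjusted p passed without 20 mg replicate 1 (20.3 points) or 20 mg replicate 2 (21.1). For peaks per kb the range was 0.179 to 0.273, passing without 20 mg replicate 2. For fold enrichment it was -0.375 to -0.225 and for the input level 15.2 to 22.8, both passing without 4 mg replicate 2. Without the 3 lists that stand apart, an alternative added after seeing the data, the gaps were 27.7 points (exact permutation, adjusted p = 0.00977) and 0.359 peaks per kb (0.00977), and the number of chrM peaks at 20 mg and 100 mg minus 500 mg turned to 2.00 and 5.50. The lists were left out for their chrM values, so these p-values favour the difference.

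The gap in median width, 0.417 bp, turned to -12.7 bp for peaks with −log10 q of at least 5 and to -29.7 bp among the 3000 strongest peaks of each list, and ran from -4.77 to 8.73 bp with each list left out. Among the 3000 strongest, the number at 4 mg and 100 mg minus 500 mg turned to 18.7 and 5.00 and the covered share at 4 mg minus 500 mg to 10.3 points. With each list left out these 3 differences ran from -10.0 to 6.00, from -22.0 to 5.50 and from -10.5 to 3.73. With −log10 q of at least 5, 14 in place of 25 mitochondrial genes were overlapped in at least 9 lists. The cause of these changes was not tested. Merging intervals joined no chrM peaks.

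Same-numbered lists showed no shared deviation on chrM, with correlations from -0.731 to 0.576 and above 0.1 in 4 of 18 pairs. These correlations were not tested. With a replicate block, which leaves the share of variance between biomasses as it was (65.8% for width), the exact p-values ran from 0.0833 to 0.599 (adjusted p from 0.224 to 0.599), and no call changed. Depth and read totals were not analysed here, so the counting error of a covered share is unknown.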

Other observations

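The ribosomal DNA of chromosome XII, a tandem repeat, also differed between the lists. From RDN25-1 to RDN5-2 (chromosome XII, 451786 to 468931, 17146 bp, 2 annotated units) a single peak covered 100% in 8 lists. The coverage was 88.04% in 12 peaks in 100 mg replicate 3 and 41.1% in 21 peaks in 20 mg replicate 1, and 0% in 20 mg replicate 2 and 100 mg replicate 1. The 3 lists with the lowest coverage here were the 3 with the lowest coverage on chrM. It was looked at after the chrM values were seen, and no test was run.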
